A study of Rattus norvegicus with 24 samples.

Results

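This report follows 6 transcripts of neutrophils, S100a8, S100a9, Slpi, Lcn2, Fcnb and Mmp8, out of the 14218 genes that the rat array measured, in the injured thoracic spinal cord. They were chosen by name as calgranulins, or as proteins stored in or released with neutrophil granules, with earlier results of these data known. Each was represented by 1 ProbeSet that the array's annotation assigns to that gene alone: 1368494_at for S100a8, 1387125_at for S100a9, 1367998_at for Slpi, 1387011_at for Lcn2, 1387378_at for Fcnb and 1387735_at for Mmp8. Female Wistar rats received a laminectomy over T6-T8 and then had an aneurysm clip with a closing force of 35 g shut on the cord at T7 for 1 min. By the methods, the animals then received the antibiotic Clavamox for 7 days, with analgesia and saline. The cord at the injury epicenter was taken 1, 3, 7, 14 or 56 days post-injury, with 4 rats on each day, and the T7 cord of 4 sham rats served as the reference. Rats of days 1 and 3 were thus taken within the antibiotic course and those of days 14 and 56 after it. That course and the day cannot be told apart. The sources used here do not give the age of the rats, the sham operation in detail or the day on which sham cord was taken, and no gene was altered in any group. All 5 days were set against the same 4 sham rats, so those comparisons are not independent of each other.

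Neutrophils are made in bone marrow, circulate briefly and are among the first blood cells to enter injured tissue, where they release preformed proteins from their granules. S100a8 and S100a9 encode the calgranulins, small calcium-binding proteins that pair as calprotectin, fill the neutrophil cytosol and can signal through the receptors Tlr4 and Ager. Slpi encodes a secreted inhibitor of neutrophil elastase and cathepsin G. Lcn2 encodes a lipocalin that withholds iron from bacteria by binding their siderophores, and reactive astrocytes are also known to make it. Fcnb encodes ficolin B, a lectin of myeloid cells that recognises sugars on microbes and can start the lectin pathway of complement. Mmp8 encodes the neutrophil collagenase. Granule proteins are largely transcribed while neutrophils mature in the marrow, in successive steps, so that a blood neutrophil carries a protein whose transcript it may no longer hold.

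The sequences around the transcription start are shown because these genes are known for control by myeloid and inflammatory factors and because several of them moved together here. RefSeq (assembly GRCr8) gave a start window, 250 bases before and 50 bases after the start, for 4 of the 6 genes, S100a9, Fcnb, Lcn2 and Mmp8. Capitals mark matches, on either strand, to 5 motifs. TTGCNNAA is the C/EBP type, bound by factors of granulocyte development. GGGANNNNCC is the NF-kappaB type of inflammatory genes. The PU.1 type, read by a factor of myeloid cells, was searched as GAGGAAG. The AP-1 type, read by Fos and Jun proteins, was searched as TGANTCA, and the last motif was the TATA box, with the letters TATAAA.
S100a9, chr2:178490573-178490872, minus strand: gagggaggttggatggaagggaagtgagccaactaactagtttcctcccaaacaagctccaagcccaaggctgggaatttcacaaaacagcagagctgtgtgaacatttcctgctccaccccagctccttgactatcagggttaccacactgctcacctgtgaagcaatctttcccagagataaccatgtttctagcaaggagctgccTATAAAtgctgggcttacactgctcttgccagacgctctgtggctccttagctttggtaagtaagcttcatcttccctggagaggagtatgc
Fcnb, chr3:31800139-31800438, minus strand: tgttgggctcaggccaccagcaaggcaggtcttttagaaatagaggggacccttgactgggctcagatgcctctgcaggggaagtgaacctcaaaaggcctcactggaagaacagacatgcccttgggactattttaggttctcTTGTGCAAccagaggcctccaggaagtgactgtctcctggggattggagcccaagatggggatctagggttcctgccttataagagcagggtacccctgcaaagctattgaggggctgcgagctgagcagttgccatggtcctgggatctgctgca
Lcn2, chr3:36081731-36082030, minus strand: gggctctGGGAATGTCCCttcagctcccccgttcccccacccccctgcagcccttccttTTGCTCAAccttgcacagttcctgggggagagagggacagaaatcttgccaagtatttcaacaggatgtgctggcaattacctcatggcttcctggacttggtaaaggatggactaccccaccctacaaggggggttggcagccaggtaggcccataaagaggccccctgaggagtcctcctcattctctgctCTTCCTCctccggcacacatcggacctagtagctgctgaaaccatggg
Mmp8, chr8:13008640-13008939, plus strand: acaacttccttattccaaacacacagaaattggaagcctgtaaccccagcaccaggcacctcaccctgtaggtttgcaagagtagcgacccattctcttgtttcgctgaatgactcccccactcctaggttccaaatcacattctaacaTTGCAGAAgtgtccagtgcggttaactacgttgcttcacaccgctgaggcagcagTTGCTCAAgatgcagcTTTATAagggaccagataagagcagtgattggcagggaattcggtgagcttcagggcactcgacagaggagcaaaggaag
The C/EBP-type letters stood in 3 of the 4 windows. Fcnb held TTGTGCAA from base -106, Lcn2 held TTGCTCAA from base -191 and Mmp8 held TTGCAGAA from base -101 and TTGCTCAA from base -46, counted from the start. Of the 33469 windows of this length in the RefSeq table, 10.6% held this motif. Only Lcn2 among the 4 held the NF-kappaB type, as GGGAATGTCC from base -243 and, overlapping it on the other strand, GGAATGTCCC from base -242, and 19.3% of all windows held 1 or more. Lcn2 also held the PU.1 type as CTTCCTC from base 3 after the start, which 12.4% of windows held in either orientation. S100a9 held TATAAA from base -42 and Mmp8 held it on the other strand, as TTTATA, from base -30, against 14.2% of windows. The AP-1 type, in 7.33% of windows, was in none of the 4. A match describes letters only, and no binding was measured in these rats.

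All values are log2 values after GCRMA, a method that removes background and brings arrays to a common scale, so that a difference of 1 is a doubling. The level of background was read from 27 control ProbeSets with no rat target, whose mean ranged between 2.62 and 2.91 over the 24 arrays. Sham values of Fcnb and Lcn2 lay under this range and those of Mmp8 within it, so a level there is not readable and the log2 differences of these 3 genes, taken as deposited, include steps under background. For them the difference with every value under 2.91 held at 2.91, called the floored difference below, is given beside the deposited one. Folds are quoted from the floored difference and are approximate, because means of single control ProbeSets reached 3.22. The array number, 4 for each group, limits the precision throughout. The arrays of a group correlated with each other between 0.973 and 0.996 over all ProbeSets, with medians between 4.29 and 4.45. Markers of oligodendrocytes, the cells expected in any piece of cord, averaged between 12.95 and 14.17 on every array. On each of the 5 days the cord is a mixture, so fewer cells of a type and less RNA per cell cannot be told apart.

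A pair of arrays stood apart. The array of day 7 replicate 2 was closer to day 1 replicate 2, at a correlation of 0.988, than to day 7 replicate 3, at 0.973. Day 7 replicate 1 was as close to day 1 replicate 2, at 0.989. Day 7 replicates 2 and 3 each had a mean correlation of 0.983 with their own group. Within day 14, replicate 3 had the lowest mean correlation with its own group, 0.985. It also had the lowest neuron marker mean of that day, 6.47 against 8.61 to 8.92 in the other 3 rats. Differences from sham on days 7 and 14 that moved widely without this pair are given below with and without it. The methods state that the animals of each day were pre-processed separately, and that step and the day cannot be told apart.

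The first comparison asked how far the 6 transcripts in injured cord departed from sham cord on each day. On day 1, 5 of the 6 rose, S100a8, S100a9, Slpi, Lcn2 and Fcnb. On day 3, 4 of the 6 rose, S100a8, S100a9, Slpi and Lcn2. On day 7, Slpi and Mmp8 rose, and on day 14 Slpi alone passed the test. These counts stand against many calls over the whole array. The same limma fit called 28.4% of the 14218 genes higher and 20.1% lower on day 1. It called 23.3% higher and 15.8% lower on day 3, and 23.4% higher and 29.8% lower on day 7. On day 14 it called 15.2% higher and 15.8% lower. Such shares include small shifts under background. Cd3d, for instance, was called lower on day 7 at 2.14 against 2.21 in sham cord (limma adjusted p = 0.0439). On day 56, 15.7% of genes were higher and 15.6% lower, but 0 of the 6 passed limma's test at an adjusted p of 0.05. At an unadjusted p of 0.05, 1 of the 6, Slpi, was higher on day 56, and a limma fit of day 56 and sham alone called 2, Slpi and Lcn2. Without day 7 replicate 2, which stands apart, the full fit called 1 of the 6 on day 56.

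**Figure D1:**
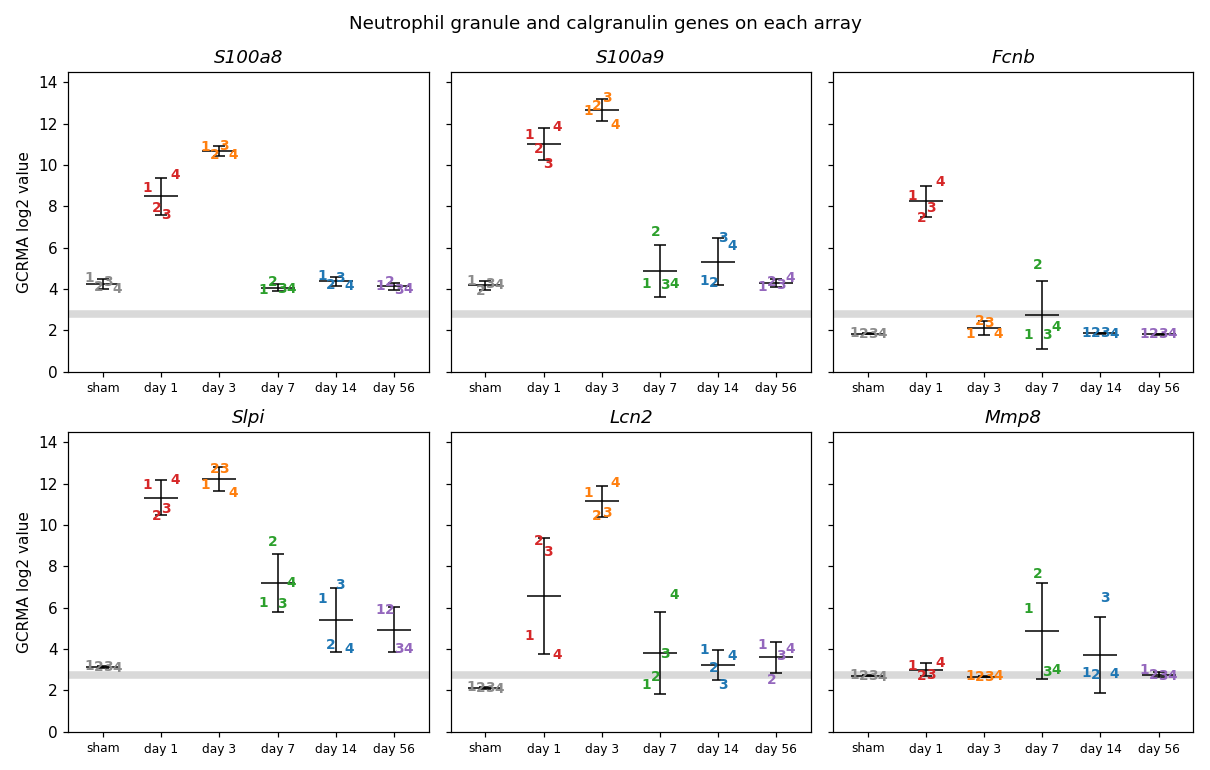
GCRMA log2 value of each of the 6 genes (vertical axis) in sham cord and on days 1, 3, 7, 14 and 56 post-injury (horizontal axis), each digit being the array of the replicate with that number; bars show the mean and SD of 4 rats, and the grey band is the background range of 2.62 to 2.91. S100a8, S100a9, Slpi and Lcn2 are highest on day 3, Fcnb is above the band in all 4 rats on day 1 only, and Mmp8 is above 5 in 2 rats of day 7 and 1 rat of day 14.

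S100a9, of the calgranulin pair, rose on days 1 and 3 and was called on no later day. On day 1 replicates 1 to 4 read 11.44, 10.79, 10.04 and 11.81, against 4.37, 3.88, 4.26 and 4.21 in sham cord. On day 3 they read 12.60, 12.85, 13.23 and 11.93. All 8 arrays of these days lay far above the 4 sham arrays and no values overlapped. The log2 fold change against sham was 6.84 on day 1 (SE 0.55, limma adjusted p = 1.42e-08), a 115-fold difference, and 8.48 on day 3 (SE 0.55, limma adjusted p = 1.16e-09), a 356-fold difference. On day 7 the values were 4.23, 6.74, 4.19 and 4.25, so that 3 of 4 rats read within the sham range and replicate 2 alone above it. On day 14 they were 4.38, 4.30, 6.48 and 6.08, with replicates 3 and 4 well above the sham range and replicate 1 barely above it. On day 56 all 4 rats, at 4.09, 4.33, 4.19 and 4.55, read at about the sham level. The log2 fold changes on days 7, 14 and 56 were 0.68, 1.13 and 0.11, and none passed the test (limma adjusted p = 0.300, 0.162 and 0.919). Without day 7 replicate 2 and day 14 replicate 3, the difference was 0.05 on day 7 and 0.74 on day 14 (limma adjusted p = 0.934 and 0.271).

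S100a8, its partner, was likewise called on days 1 and 3 alone. Replicates 1 to 4 read 8.88, 7.90, 7.60 and 9.50 on day 1, against 4.53, 4.08, 4.35 and 3.99 in sham cord. They read 10.87, 10.49, 10.93 and 10.45 on day 3, with an SD of 0.25. S100a8 rose by a log2 fold change of 4.23 on day 1 (SE 0.28, limma adjusted p = 1.80e-09) and 6.45 on day 3 (SE 0.28, limma adjusted p = 5.54e-12), or 18.8-fold and 87.4-fold. From day 7 every array lay close to sham: the group means were 4.06 ± 0.17 on day 7, 4.36 ± 0.23 on day 14 and 4.12 ± 0.18 on day 56, against 4.24 ± 0.25 in sham cord (SD, n = 4 each). The 95% intervals of the difference from sham reached at most 0.76 below and 0.71 above 0 on these 3 days. The day 7 and day 14 rats that read well above sham in S100a9 stood out less here: day 7 replicate 2 was at 4.32 and day 14 replicates 3 and 4 at 4.50 and 4.16, all within the sham range of 3.99 to 4.53.

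Slpi, the inhibitor of neutrophil proteases, rose on days 1, 3 and 7 and was the only one of the 6 called on day 14. On day 1 the 4 rats read 11.94, 10.44, 10.78 and 12.17, and on day 3 they read 11.95, 12.73, 12.74 and 11.55, against 3.20, 3.14, 3.15 and 3.07 in sham cord. The sham values lay above the array means of the control ProbeSets but within the range of single controls, whose means reached 3.22, so the sham level of Slpi is not readable either and its folds are approximate. Slpi rose by a log2 fold change of 8.20 on day 1 (SE 0.72, limma adjusted p = 3.85e-08), or 293-fold, and of 9.10 on day 3 (SE 0.72, limma adjusted p = 1.42e-08), or 550-fold. On day 7 the values were 6.23, 9.17, 6.20 and 7.20, so all 4 rats were still above every sham rat. The difference was 4.06 (SE 0.72, limma adjusted p = 2.12e-04), and it was 3.40 (limma adjusted p = 4.20e-04) in the fit without day 7 replicate 2 and day 14 replicate 3. On day 14 the rats split into a higher pair, replicates 1 and 3 at 6.41 and 7.08, and a lower pair, replicates 2 and 4 at 4.18 and 4.01. The difference of 2.28 passed the test (SE 0.72, limma adjusted p = 0.0245) but not without replicate 1 (1.95, limma adjusted p = 0.0850) or without replicate 3 (1.73, limma adjusted p = 0.115). On day 56 the same kind of split appeared, at 5.88, 5.89, 3.99 and 4.01. All 4 rats of day 56 read above all 4 sham rats, yet the difference of 1.80 missed the threshold (95% interval 0.29 to 3.31, limma adjusted p = 0.0780), while an exact two-sided permutation test of the 8 values gave an unadjusted p of 0.0286, the smallest that 4 against 4 allows.

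Lcn2 rose on days 1 and 3 but differed widely between the rats of day 1. Replicates 1 to 4 read 4.61, 9.23, 8.72 and 3.72 on day 1, against 2.15, 2.12, 2.13 and 2.07 in sham cord. Replicates 2 and 3 were therefore more than 4 log2 units above replicates 1 and 4. On day 3 the same gene read 11.56, 10.45, 10.58 and 12.02, high in all rats. Lcn2 rose on day 1 by a log2 fold change of 4.46 (floored 3.66, SE 1.03, limma adjusted p = 0.00141), about 12.6-fold from the floored difference. On day 3 it rose by 9.04 (floored 8.24, SE 1.03, limma adjusted p = 1.30e-06), about 302-fold from the floored difference. Thereafter the level was low but uneven. It read 2.26, 2.65, 3.75 and 6.60 on day 7, 3.94, 3.11, 2.28 and 3.65 on day 14, and 4.20, 2.52, 3.67 and 4.03 on day 56. Every one of these 12 rats read above every sham rat, though 4 of them at or under the background range, and the differences from sham of 1.70, 1.13 and 1.49 (floored 1.13, 0.49 and 0.79) did not pass the test (limma adjusted p = 0.163, 0.444 and 0.379).

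Fcnb was called on day 1 and on no other day. On day 1 replicates 1 to 4 read 8.50, 7.42, 7.91 and 9.16, against 1.84, 1.83, 1.83 and 1.80 in sham cord. The log2 fold change was 6.42 (floored 5.34, SE 0.51, limma adjusted p = 1.35e-08), or about 40.4-fold from the floored difference. On day 3 Fcnb read 1.82, 2.43, 2.34 and 1.82, under the background range in all 4 rats and on the very arrays where S100a8, S100a9, Slpi and Lcn2 were at their highest. On day 7 it read 1.77, 5.16, 1.78 and 2.16, and replicate 2 was the only array outside day 1 above background. The day 7 difference from sham was 0.89 (floored 0.56, limma adjusted p = 0.143), and 0.08 without day 7 replicate 2 and day 14 replicate 3 (limma adjusted p = 0.827). The group means were 1.85 ± 0.01 on day 14 and 1.81 ± 0.02 on day 56, against 1.82 ± 0.02 in sham cord (SD, n = 4 each).

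Mmp8 was not called on days 1 and 3, when it read near background. On day 1 it read 3.19, 2.70, 2.75 and 3.35, and on day 3 it read 2.71, 2.64, 2.64 and 2.70, against 2.73, 2.71, 2.72 and 2.68 in sham cord. Only replicates 1 and 4 of day 1 cleared the background range on these days, and by little. On day 7 the collagenase transcript read 5.95, 7.61, 2.90 and 2.97, high in replicates 1 and 2 and at about background in the other pair. On day 14 it read 2.84, 2.76, 6.50 and 2.82, high in replicate 3 alone, and on day 56 it read 2.97, 2.74, 2.68 and 2.69. The day 7 difference of 2.15 only just passed (SE 0.84, limma adjusted p = 0.0426), and the floored difference of 1.95 did not (limma adjusted p = 0.0891). It was 1.79 without day 7 replicate 1 (limma adjusted p = 0.117) and 1.23 without day 7 replicate 2 (limma adjusted p = 0.167), and it also missed the threshold when any 1 sham rat was left out, at 2.14 to 2.16 (limma adjusted p = 0.0576 to 0.0888). The day 14 mean rested on replicate 3: the difference from sham was 1.02 with it and 0.09 without it and day 7 replicate 2, and neither passed (limma adjusted p = 0.410 and 0.904).

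**Figure D2:**
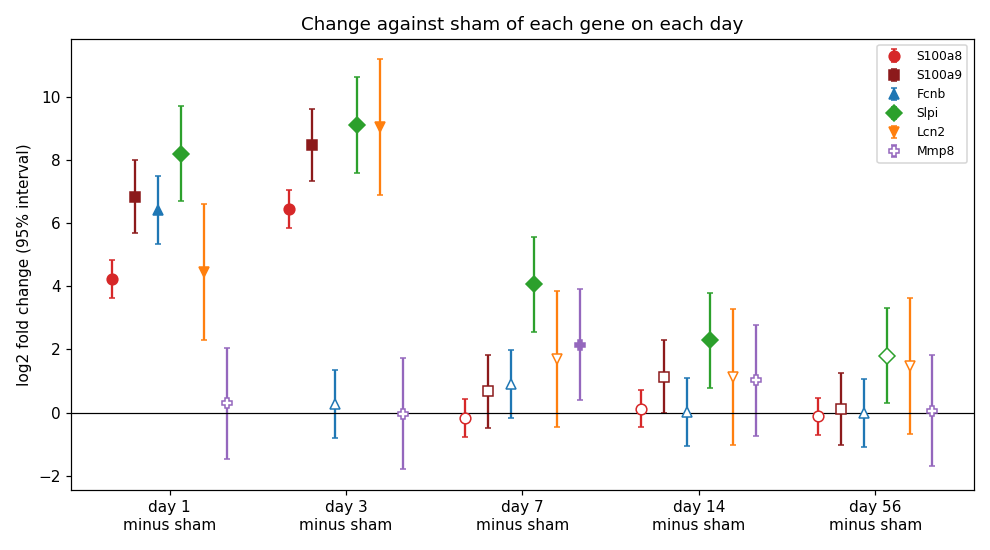
Log2 fold change of each gene against sham cord (vertical axis) on days 1, 3, 7, 14 and 56 (horizontal axis), with the 95% interval from limma; n = 4 rats for each group, filled symbols passed the adjusted p of 0.05 and open ones did not. Filled symbols fall to 5 of 6 on day 1, 4 on day 3, 2 on day 7, 1 on day 14 and 0 on day 56.

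The second comparison followed the genes from each day to the next, which were different rats. From day 1 to day 3, against 16.6% of all genes higher and 17.2% lower, 3 of the 6 rose further and 1 fell. S100a8 gained 2.22 (SE 0.28, limma adjusted p = 1.22e-05), S100a9 gained 1.63 (SE 0.55, limma adjusted p = 0.0345) and Lcn2 gained 4.58 (SE 1.03, limma adjusted p = 0.00232). Fcnb moved the other way, with a log2 fold change of -6.15 on day 3 against day 1 (SE 0.51, limma adjusted p = 9.87e-08), or -5.34 floored, since all day 3 values were under background. Slpi, at 12.24 ± 0.59 on day 3 and 11.33 ± 0.85 on day 1 (SD, n = 4 each), was not shown to differ (0.91, 95% interval -0.60 to 2.42, limma adjusted p = 0.303). The S100a9 gain was lost without day 1 replicate 2 or 3 or day 3 replicate 2 or 3, at 1.31 to 1.57 (limma adjusted p = 0.0515 to 0.114), and the Lcn2 gain in a fit of days 3 and 1 alone (limma adjusted p = 0.0544).

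Markers of resident and invading cells also differed between days 3 and 1. The mean of 7 neuron markers was 9.51 to 9.96 on day 3 arrays and 6.15 to 8.04 on day 1 arrays, with 6 of 7 called higher on day 3. The mean of 10 monocyte and macrophage markers was 7.38 to 7.75 on day 3 and 9.23 to 9.77 on day 1, with 6 of 10 called lower, and that of 6 fibroblast markers was 4.84 to 8.63 on day 3 and 9.99 to 11.83 on day 1, with 6 of 6 called lower. The mean of 7 reactive astrocyte markers was 10.78 to 11.20 on day 3 and 9.38 to 9.85 on day 1, with 2 of 7 called higher and 1 lower. The median log2 fold change of the 7 was 0.67. Among them Serpina3n, an acute-phase protease inhibitor of reactive astrocytes, had means of 8.09 on day 3 and 1.94 on day 1, against 1.91 in sham cord. Its day 1 and sham means were under background, so its step is not readable in full. The part of all these markers in the changes of the 6 genes was not tested.

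From day 3 to day 7 the 4 genes that were high on day 3 all fell, against 16.5% of all genes lower and 12.3% higher. The log2 fold changes of day 7 against day 3 were -6.62 for S100a8, -7.80 for S100a9, -5.04 for Slpi and -7.34 (floored -7.11) for Lcn2, with limma adjusted p from 9.51e-12 to 3.32e-05. No day 7 value of these 4 genes reached its lowest day 3 value. Markers of other cells moved between the same days. Of 4 red cell markers 2 fell, Alas2, of heme synthesis, by a log2 fold change of -6.79 and Hbb, a globin, by -2.38 (limma adjusted p = 2.61e-05 and 1.30e-05), and both were also higher on days 1 and 3 than in sham cord. The red cell mean was 5.83 to 6.07 on day 7 arrays and 7.63 to 10.08 on day 3 arrays. On day 7 against day 3, 4 of 4 microglia, 6 of 6 fibroblast and 6 of 10 monocyte and macrophage markers were higher, and 3 of 7 neuron markers were lower, while of 7 reactive astrocyte markers 4 were lower and 2 higher. Their part in the fall of the 4 genes was not tested. Mmp8 read higher on day 7 than on day 3 in all 4 rats, but the difference of 2.19 (floored 1.95) missed the threshold (SE 0.84, limma adjusted p = 0.0728), and it passed without day 7 replicate 3 or 4 (2.84 and 2.82, limma adjusted p = 0.0185 and 0.0232). Between day 14 and day 7, 22.4% of all genes were higher and 6.91% lower. These also include shifts under background, such as Camp, at 2.03 on day 14 and 1.95 on day 7 (limma adjusted p = 0.00936). Of the 6 genes limma called 0. At an unadjusted p of 0.05 Slpi was lower, by a log2 fold change of -1.78, limma called it without day 7 replicate 1, day 7 replicate 3 or day 14 replicate 1, and without day 14 replicate 3 it called 2 of the 6 lower, Slpi at -2.33 and Mmp8 at -2.06. A fit of days 14 and 7 alone called 0. Between day 56 and day 14 only 0.176% of all genes were higher and 0.113% lower. In that comparison 0 of the 6 passed limma's test, either adjusted or at an unadjusted p of 0.05, and a fit of days 56 and 14 alone also called 0.

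The order of levels over the groups was thus read gene by gene. For S100a8 and S100a9 day 3 stood above day 1, and day 1 above all of the other groups, whose neighbours in the order did not differ beyond their spread. For Slpi days 3 and 1 came first without a called difference between them, then day 7, lower than day 1 by a log2 fold change of -4.14 (limma adjusted p = 0.00128). Below it came day 14, which was not called against day 7 (-1.78, limma adjusted p = 0.0614), then day 56 and sham, where no neighbours differed by the test. For Lcn2 day 3 stood above day 1, and from day 1 down each neighbour, day 7, day 56, day 14 and sham, missed the threshold (limma adjusted p = 0.0583 for day 7 against day 1). For Fcnb only the step below day 1 was called (day 7 against day 1, -5.53, floored -4.77, limma adjusted p = 1.48e-06). For Mmp8 no pair of neighbours in the order differed beyond their spread.

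Rats of the same day did not rank alike in all 6 genes. On day 1 replicates 1 and 4 were the higher pair for S100a8, S100a9, Slpi, Fcnb and Mmp8, and the lower pair for Lcn2. On the same 4 arrays, in the order of replicates 1 to 4, neuron markers averaged 6.94, 8.04, 7.77 and 6.15 and astrocyte markers 8.51, 9.14, 9.27 and 8.38. The red cell markers averaged 8.71, 8.37, 7.10 and 10.04. Replicates 2 and 3, with the high Lcn2, therefore also had the higher neuron and astrocyte markers. On day 3, in different rats, Lcn2 was again higher where Slpi was lower. Lcn2 was highest in replicates 1 and 4, at 11.56 and 12.02, and Slpi in replicates 2 and 3, at 12.73 and 12.74. On the day 3 arrays, in the order of replicates 1 to 4, astrocyte markers averaged 9.40, 9.16, 9.29 and 9.33. Neuron markers averaged 9.96, 9.79, 9.51 and 9.53. With 4 rats for each day no test of these orders was made, and the part of the markers in them was not tested.

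**Figure D3:**
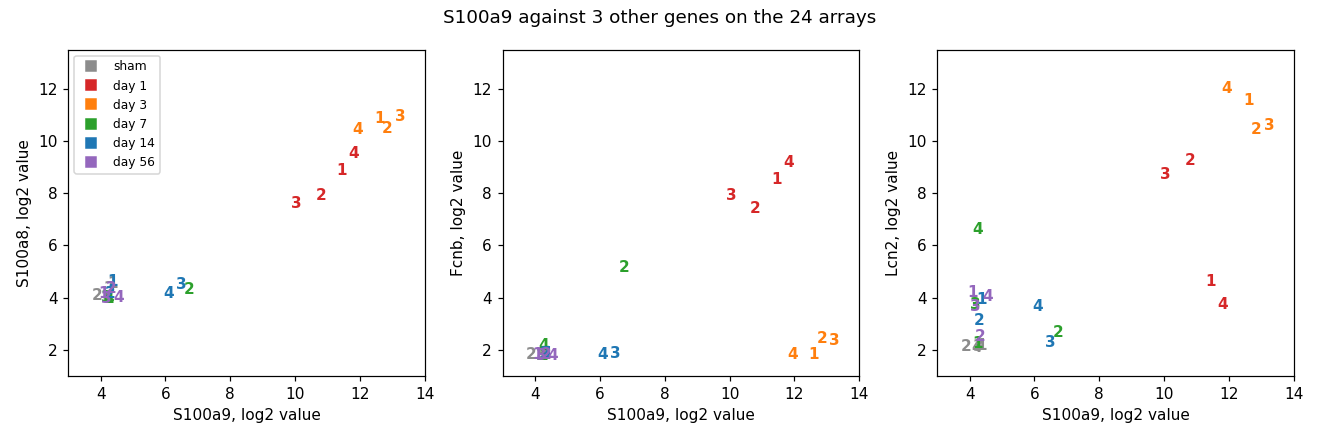
Log2 values of S100a8, Fcnb and Lcn2 (vertical axes of the 3 panels) against those of S100a9 (horizontal axis) on the 24 arrays, each digit being a replicate number and each colour a group. The day 3 rats are high in S100a9 with S100a8 and Lcn2 and low in Fcnb, and day 1 replicates 1 and 4 are high in S100a9 with Lcn2 values of 4.61 and 3.72.

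Over the 24 arrays S100a8 correlated with S100a9 at 0.974 and S100a9 with Slpi at 0.930, whereas S100a8 with Fcnb gave 0.422 and the correlations of Mmp8 with the other 5 ran from -0.326 to 0.089. These are descriptions, because the arrays fall into 6 groups of 4 and the high values come mostly from days 1 and 3. Of 9229 genes searched, those most like S100a8 were Ecscr, a regulator of endothelial signalling, at 0.984, Fosl1, a subunit of AP-1, at 0.983, and Tma16 at 0.980. Those most like S100a9 were Ecscr at 0.981, Lrg1, a leucine-rich glycoprotein of neutrophil granules and liver, at 0.976, and Orc6, a subunit of the origin recognition complex, at 0.973. Slpi was most like Ccl7, a chemokine that draws monocytes, at 0.971, Nhp2 at 0.971 and Dph3 at 0.967. Lcn2 was most like Hopx at 0.943, Sox7 at 0.924 and Tigd2 at 0.923. The nearest of Fcnb were Ska1 at 0.984, Kif18b at 0.983 and Nuf2 at 0.982, 3 genes of the mitotic spindle and kinetochore. The nearest of Mmp8 were Heph, a ferroxidase of iron export, at 0.825, Fcna, the other ficolin, at 0.812, and Aard at 0.801.

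These genes were chosen for their likeness on the same 24 arrays, so their courses are a description and no support. The search took only genes whose mean reached 5 somewhere among the 6 groups, a level that Ska1, Kif18b and Nuf2 reached on day 1 alone, with means of 6.41, 5.85 and 6.44. Fosl1 reached it on day 1, at 6.24, and on day 3, at 8.75, against 1.72 in sham cord.

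The arrays of day 7 and day 14 that were high in Mmp8 shared a further feature. On day 7, replicates 1 and 2, at 5.95 and 7.61 for Mmp8, had fibroblast marker means of 12.52 and 12.56, and replicates 3 and 4 had 11.09 and 10.85. On day 14, replicate 3, at 6.50 for Mmp8, had a fibroblast marker mean of 12.95, and the other 3 rats had 11.11 to 11.44. Neuron markers ran the other way, at 7.69 and 7.52 in day 7 replicates 1 and 2 and 9.39 and 8.21 in replicates 3 and 4. Monocyte and macrophage markers averaged 9.48 and 10.03 in day 7 replicates 1 and 2 and 8.56 and 8.90 in replicates 3 and 4, and 9.38 in day 14 replicate 3 and 8.60 to 8.89 in the other 3 rats. On day 56, however, replicate 4 had a fibroblast marker mean of 12.14 and an Mmp8 value of 2.69. The part of these markers in the Mmp8 values was not tested.

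Other genes of neutrophils were then counted, from a list of 30 granule proteins and a list of 25 receptors and attractants, of which 16 each were measured. Of these 32 genes, 12 rose on day 1, 14 on day 3, 10 on day 7, 11 on day 14 and 10 on day 56. Over all genes the shares called higher on these days were 28.4%, 23.3%, 23.4%, 15.2% and 15.7%. On day 7, 8 of the 32 were called lower, beside 29.8% of all genes. The median log2 fold change of the 32 was 0.04 on day 1, 0.36 on day 3 and -0.05 on day 7, beside 0.01, -0.04 and -0.05 over all genes. As many as 11 of the 32 were below the background level in every group. Those with the greatest rise on day 1, several of them also known from macrophages and microglia, were Cybb, the catalytic subunit of the phagocyte oxidase (6.27), Arg1, an arginase (5.40), Fcgr3a, an Fc receptor (5.05), Itgb2, an integrin chain of all leukocytes (4.27), Csf3r, the receptor for G-CSF (4.19), Tlr2 (4.13), Lyz2, lysozyme (3.59), and Serpinb1a, an inhibitor of neutrophil proteases (3.37), with limma adjusted p from 1.07e-08 to 1.24e-05. On day 3, Il1r2, the decoy receptor for interleukin 1, and the neutrophil attractants Cxcl1, Cxcl2 and Cxcl3 were called as well. Their means were 7.12, 6.80, 6.66 and 5.93 on day 3, against 2.06, 2.95, 2.11 and 4.11 in sham cord (limma adjusted p from 1.43e-08 to 2.18e-04), and none of these 4 was called on day 1 (limma adjusted p from 0.131 to 1.00). Cybb was still 5.77 above sham on day 56 (limma adjusted p = 1.61e-06), Itgb2 3.34 (limma adjusted p = 6.86e-05), Lyz2 2.87 (limma adjusted p = 6.87e-07) and Fcgr3a 2.71 (limma adjusted p = 6.16e-04).

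Of 9 markers used to define neutrophils, 3 were analysed. Csf3r had a mean of 8.79 on day 1, 7.11 on day 3, 7.78 on day 7, 6.71 on day 14 and 6.22 on day 56, against 4.60 in sham cord, and all 5 differences passed the test. The group means of Camp, the cathelicidin of specific granules, were 1.95 to 2.03, and those of Cxcr2, the receptor that guides neutrophils to CXC chemokines, 1.95 to 2.43, all under the background range, on day 1 as in sham cord. The highest of these, Cxcr2 on day 3, had an SD of 0.88, so the rats of that day differed. Mmp9, the gelatinase of neutrophil granules, was at 1.97 on day 7 and 2.04 in sham cord, where its call as lower (limma adjusted p = 0.0374) rested on a difference of -0.06 under background. The paper reports higher Mmp9 mRNA after injury and names no ProbeSet or day for it. The day 7 values given here therefore cannot be compared directly with that report. Of the 8 genes of the 2 lists called lower on day 7, Chi3l1, a chitinase-like protein that astrocytes also make, was the one well above background (9.10 on day 7 and 10.22 in sham cord, limma adjusted p = 0.0473). The control ProbeSets averaged 2.63 to 2.70 on day 7 arrays and 2.71 to 2.87 on sham arrays. The name neutrophil genes thus rests on what is known of the 6, since of the defining markers only Csf3r, which monocytes also carry, had group means above background.

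**Figure D4:**
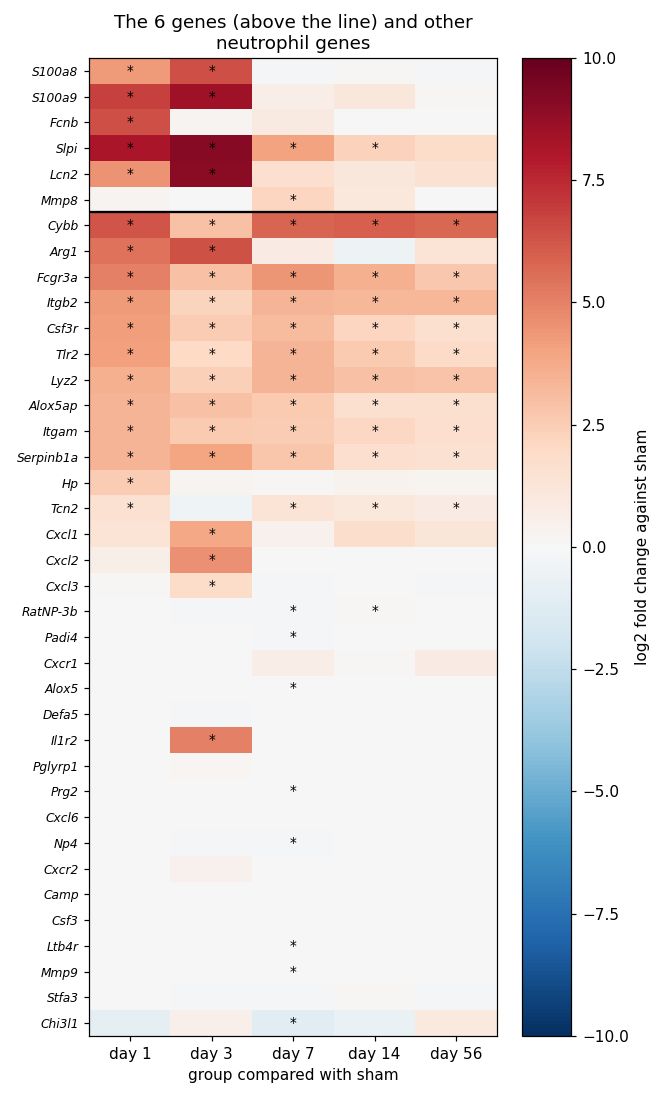
Log2 fold change against sham cord (colour) of the 6 genes, above the black line, and of 32 other neutrophil genes below it, ordered by their day 1 value, on days 1, 3, 7, 14 and 56 (horizontal axis); a star marks a limma adjusted p under 0.05. S100a8, S100a9, Slpi and Lcn2 are starred on days 1 and 3, Slpi also on days 7 and 14 at 4.06 and 2.28, while Cybb, Itgb2, Lyz2 and Fcgr3a are above sham on all 5 days.

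Other S100 genes were called on late days as well. Of 13 measured, 5 rose and 2 fell on day 1, 4 rose and 2 fell on day 3, and 5 rose on day 56. The list includes S100pbp, which is named for binding an S100 protein and was not called on these days. The genes called higher on days 1 and 56 include S100a3, at 2.53 and 2.58 against 1.65 in sham cord, all under background. Over all genes, 28.4% were higher and 20.1% lower on day 1, and 23.3% and 15.8% on day 3. On day 56 these shares were 15.7% and 15.6%. S100a11 rose by 5.26 on day 1 (limma adjusted p = 1.26e-10) and was still 3.69 above sham on day 56 (limma adjusted p = 2.76e-08). S100a6, which lies 1 coding gene beyond S100a7a next to S100a8 on chromosome 2, rose by 3.20 on day 1, 1.72 on day 3 and 2.18 on day 56 (limma adjusted p = 7.56e-07, 0.00111 and 1.64e-04). S100a10 rose by 2.29 and S100a4 by 1.48 on day 1, and both were called higher on every day. S100a8 and S100a9 are themselves neighbours on that chromosome, and S100a7l2, the measured gene on the far side of S100a9, stood at 3.23 on day 1, 3.14 on day 3 and 3.16 in sham cord and was not called on any day.

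Neighbours of the other genes were read in the same way. Lcn2 lies between Bbln and Ptges2 on chromosome 3. Ptges2 was 0.69 above sham on day 3 (limma adjusted p = 4.33e-05) and Bbln 0.14 (limma adjusted p = 0.545). Fcnb lies between Col5a1, a collagen gene, and Olfm1, a gene of neurons, on the same chromosome, and on day 1 Col5a1 rose by 2.70 (limma adjusted p = 0.00326) while Olfm1 fell by 0.94 (limma adjusted p = 7.70e-04). Mmp10, next to Mmp8 on chromosome 8, was under background in every group, at 2.00 on day 7 and 2.06 in sham cord.

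Partners of the 6 proteins were called on early and late days. Of 20 receptors, partners and inhibitors, all measured, 9 rose and 1 fell on day 1. On day 3, 6 rose and 3 fell, and on day 56, 9 rose and 1 fell. The shares of all genes called higher on these days were 28.4%, 23.3% and 15.7%, and those called lower 20.1%, 15.8% and 15.6%. The largest changes on day 1 were in Cd14, the co-receptor of Tlr4 (8.32, limma adjusted p = 1.86e-10), Cd36, a scavenger receptor that binds calprotectin (5.87, limma adjusted p = 9.33e-06), Timp1, an inhibitor of collagenases such as Mmp8 (4.02, limma adjusted p = 6.18e-08), and Plscr1, a partner of Slpi in human cells (3.90, limma adjusted p = 0.00140). Cd14 was 6.44 above sham on day 56 (limma adjusted p = 1.32e-08) and Cd36 3.29 (limma adjusted p = 0.00561). Slc22a17, a receptor for the Lcn2 protein, was called lower on all 5 days, by -2.12 on day 1 and -1.13 on day 56 (limma adjusted p = 9.32e-07 and 0.00172).

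Among 12 measured transcription factors of the myeloid and acute-phase programmes, 9 rose on day 1 and 7 on each later day. Of all genes, 28.4% were higher on day 1, 23.3% on day 3, 23.4% on day 7, 15.2% on day 14 and 15.7% on day 56. Cebpa rose by 4.02 on day 1 and 1.51 on day 3 (limma adjusted p = 8.56e-08 and 0.00460), Cebpb by 3.54 and 3.19 (limma adjusted p = 4.81e-08 and 2.52e-07) and Cebpd by 2.97 and 3.30 (limma adjusted p = 1.11e-08 and 3.48e-09). The C/EBP-type letters that such factors bind stood in the windows of Fcnb, Lcn2 and Mmp8 but not in that of S100a9. For S100a8 and Slpi no window was available. The part of Cebpa, Cebpb and Cebpd in the courses of these genes was not tested. Irf8, a factor of monocyte lineage, rose by 3.69 on day 1 (limma adjusted p = 4.42e-06) and was at 1.26 on day 3 (limma adjusted p = 0.0592). On day 56 Irf8 was 3.10 and Cebpa 2.99 above sham (limma adjusted p = 9.26e-05 and 9.84e-06). Cebpe, the factor of late granule genes, and Gfi1 were the 2 called lower on day 7, both under background (1.69 and 2.40 on day 7, 1.75 and 2.49 in sham cord).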

How the data were processed

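The 24 arrays gave 1 log2 value for each of 31099 ProbeSets and array. Per the labels and the methods, the authors made these deposited log2 values with GCRMA in the affy package (version 1.12.2), each day's animals being pre-processed separately; no array date was available from the labels or methods. Nothing was normalized again. The 20832 ProbeSets with 1 gene symbol were reduced to 14218 genes by the highest mean over all arrays, and 436 with several symbols and 9831 with none were not named. All ProbeSets entered 1 limma fit (version 3.58.1, R 4.3.3) with the 6 groups as factors, with no covariate, with Benjamini-Hochberg adjusted p-values over the whole table in each comparison (threshold 0.05). The fit was tested on simulated data. Replicates are separate rats by the methods.

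The 6 genes, the gene lists and the tests were chosen with earlier results of these data known. Genes named besides the 6 were, of each list, up to 4 with the largest called change on day 1 and up to 2 on day 56, the 3 genes most correlated with each of the 6, and markers beside results they move with. Genome neighbours were added by position, and Il1r2, Cxcl1, Cxcl2, Cxcl3, Mmp9, Chi3l1, Slc22a17, Cebpe and Gfi1 after their values were seen. Alternatives were a 2-group fit, trend with robust moderation, quantile normalization, median centring, a filter keeping ProbeSets with a group mean of at least 5, a floor at the background level, adjustment over named ProbeSets, ProbeSet means, an exact permutation test, a replicate block and leaving out each array.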

Additional observations from a re-analysis of the deposited data

Results flagged for a closer look

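Over the 36 sets of 4 arrays (6 genes in 6 groups), 4 held an array far from the other 3, by a gap over the whole range above Dixon's critical value for 4; chance gives about 1 in 20 such groups. In 3 of them the array was day 7 replicate 2, which read 6.74 for S100a9, 5.16 for Fcnb and 4.32 for S100a8. The fourth was day 14 replicate 3 for Mmp8, at 6.50.

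The effect against sham differed between successive days by limma's test for several genes. Against day 1, the effect on day 3 was greater by 2.22 for S100a8, 1.63 for S100a9 and 4.58 for Lcn2, and changed by -6.15 for Fcnb. Against day 3, the effect on day 7 changed by -6.62 for S100a8, -7.80 for S100a9, -5.04 for Slpi and -7.34 for Lcn2. All of these are on the log2 scale and cancel the shared sham value; held at the background level, Fcnb changed by -5.34 and Lcn2 by -7.11.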

How the results depend on the processing

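No value of the 6 genes that passed the test changed its sign under any alternative. On days 1 and 3 against sham the counts of 5 and 4 genes were the same under every alternative run, and 42 of the 54 single-gene differences were on the same side of the threshold throughout. The day 7 count of 2 was 1 in the 2-group fit, after quantile normalization, with the filter on dim ProbeSets, with the floor at background and without day 7 replicate 2 and day 14 replicate 3 together (an alternative chosen after seeing the data), and 1 to 2 with each array left out; Mmp8 was the gene lost, and the filter removed its ProbeSet. The day 14 count of 1 was 0 in the 2-group fit and without that pair, and 0 to 1 with each array left out. The day 56 count of 0 was 2 in the 2-group fit, 1 with the filter, 1 without that pair, and 0 to 1 with each array left out. The count of 0 for day 14 against day 7 was 0 to 2 with each array left out, for day 3 against day 1 it was 3 to 4 and for day 7 against day 3 it was 4 to 5, with 5 without day 7 replicate 3 or 4 or day 14 replicate 3. The cause of these shifts was not tested beyond the arrays and the filter named. Counts of the 32 other neutrophil genes stayed within 1.5 times. Signals near background limit what can be said of Fcnb, Lcn2 and Mmp8 in sham cord, and 4 rats a group limit the rest.

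Replicate numbers did not pair the rats: over 60 same-numbered pairs of arrays the correlation of deviations ran from -0.657 to 0.452 (median 0.004). With the replicate number as a block the day 7 count was 1, Mmp8 having a limma adjusted p of 0.0545, and the day 3 against day 1 count was 3, S100a9 having 0.0529; it changed no other count of the 6 genes.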
